A study of Homo sapiens with 5 samples.

Results

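The array of MCF12A cells kept in ethanol for 4 weeks was compared with the array of untreated MCF12A cells, gene by gene, as the ethanol value minus the control value on the log2 scale. MCF12A is a human mammary epithelial line that is established and does not form tumours. A gene entered the comparison where a probe carried exactly 1 gene symbol, where that probe was the brightest of the gene, and where the brighter of both arrays reached an intensity of 70.2, the median of the table, called the floor here. Of 17958 genes with such a probe, 11264 passed the floor (62.7%). The counts below are of genes at or beyond a 2-fold difference.

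Both cultures grew as monolayers in 6-well plates in DMEM/F12 with antibiotic, horse serum, cholera toxin, bovine insulin, hydrocortisone and epidermal growth factor (EGF), so all of these agents were shared by the control. The control had no exposure, and the ethanol culture is labelled with 2.5% ethanol for 4 weeks. The design text of the series gives 2.5 mM for a 4-week ethanol exposure that preceded a soft agar assay, and which of these doses the culture received was not resolved. Another array of the same table came from cells kept for 4 weeks in 1% acetaldehyde, and its values are set beside those of ethanol, since both share the control array. A separate table held a soft agar clone, 1 clone grown out after ethanol exposure and labelled with 4 weeks at 2.5% ethanol, with its own control. The labels tie array designs to exposure times and do not match the design used for the clone, and its exposure time was not resolved.

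Each group had 1 array, so no difference below has a replicate check and no test was possible. The arrays had median intensities of 69.98 in the control and 70.23 in ethanol and the precision is limited by their number. RNA came from whole cultures, so fewer cells of a type and less RNA per cell cannot be told apart.

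Epithelial cells are held together by E-cadherin, desmosomes and tight junctions, and sit on a basement membrane through hemidesmosomes. In the epithelial to mesenchymal transition, factors of the SNAI, ZEB and TWIST families repress these genes while fibronectin, collagens and other matrix genes become active, and TGF-beta is a known inducer. Ethanol is oxidised by alcohol dehydrogenases to acetaldehyde, which aldehyde dehydrogenases turn into acetate.

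In ethanol 7 of 9 desmosome genes, 6 of 10 basal keratins and 11 of 21 epithelial regulators stood lower than in the control by 2-fold. On the other side were 13 of 24 matricellular and related matrix genes and 9 of 22 genes of fatty acid uptake, with the remaining members of each list under 2-fold. At 2-fold, 296 genes stood higher than control (2.63%) and 275 lower (2.44%). At 4-fold there were 79 higher and 80 lower, and at 16-fold 8 and 4. The middle 50 percent of differences lay between -0.07 and 0.06, and 3459 genes (30.7%) had equal values in both arrays. Over all probes 43.9% were equal, to within 1e-06 on the log2 scale, in this pair of arrays, against 1.02% in the pair of the clone table. Whether a processing step made values equal was not tested, so an equal value here is not a measured lack of difference. The values nearest the 2-fold line were EFNB2 at 1.0014 inside and CCDC68 at 0.9995 outside, and CTSH at -1.0004 inside and RNF152 at -0.9959 outside. Among the higher genes 96 had a control value under the floor, and among the lower genes 84 had an ethanol value under it. The fold of such a gene is a lower bound, the brighter array divided by the floor. Values joined by "against" give the ethanol array first and the control second, and values listed without it run from the control to ethanol and, where given, acetaldehyde.

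**Figure D1:**
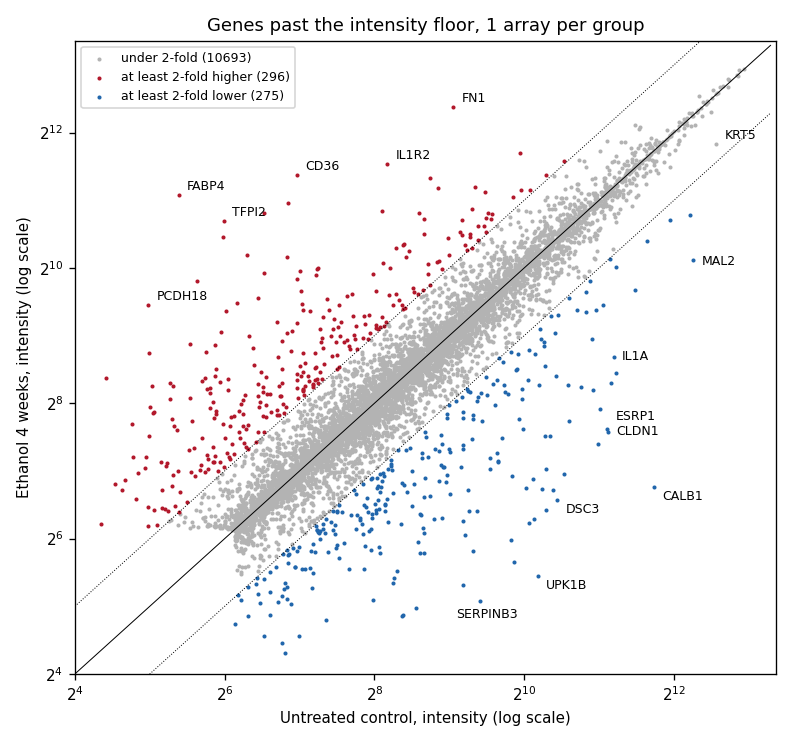
Intensity in ethanol (vertical, log scale) against intensity in the untreated control (horizontal, log scale) for the 11264 genes past the floor, with 1 array per group. The solid line marks equal values and the dotted lines a 2-fold difference, with 296 genes above and 275 below them. FABP4 lies furthest above the band and CALB1 furthest below.

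To show what a stretch of regulatory sequence around these genes looks like, the 250 bases before the annotated start are printed for DSP, AP1M2 and SPRR1B, which stood lower in ethanol, and for CCN2, which stood higher. They were chosen because each holds several copies of a motif counted further on. The sequences are those of RefSeq on GRCh38.p14, read 5′ to 3′ on the strand of the gene. Capitals in the first 3 mark CACCTG or its reverse complement CAGGTG, the E-box read by SNAI and ZEB proteins, and capitals in the fourth mark CATTCC or its reverse complement GGAATG, the motif of TEAD factors. DSP encodes the desmosome plaque protein desmoplakin and lies at chr6:7541421-7541670 on the plus strand, AP1M2 encodes an adaptor of basolateral sorting at chr19:10587313-10587562 on the minus strand, SPRR1B encodes a small proline-rich protein of the cornified envelope at chr1:153030953-153031202 on the plus strand, and CCN2 encodes a matricellular growth factor at chr6:131951373-131951622 on the minus strand.
DSP: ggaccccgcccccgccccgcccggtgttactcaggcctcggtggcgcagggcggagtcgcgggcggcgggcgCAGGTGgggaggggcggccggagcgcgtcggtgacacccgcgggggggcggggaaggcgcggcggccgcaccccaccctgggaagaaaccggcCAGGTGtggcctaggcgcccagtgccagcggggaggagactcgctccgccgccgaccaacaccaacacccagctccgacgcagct
AP1M2: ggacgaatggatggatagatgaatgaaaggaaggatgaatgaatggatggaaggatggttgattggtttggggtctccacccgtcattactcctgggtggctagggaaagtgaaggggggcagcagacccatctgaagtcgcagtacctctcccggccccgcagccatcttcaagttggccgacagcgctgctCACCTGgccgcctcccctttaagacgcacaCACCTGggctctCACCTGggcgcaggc
SPRR1B: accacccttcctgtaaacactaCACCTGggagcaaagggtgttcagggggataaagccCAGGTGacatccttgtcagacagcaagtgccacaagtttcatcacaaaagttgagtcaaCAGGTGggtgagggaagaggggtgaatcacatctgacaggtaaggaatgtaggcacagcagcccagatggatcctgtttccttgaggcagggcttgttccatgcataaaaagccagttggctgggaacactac
CCN2: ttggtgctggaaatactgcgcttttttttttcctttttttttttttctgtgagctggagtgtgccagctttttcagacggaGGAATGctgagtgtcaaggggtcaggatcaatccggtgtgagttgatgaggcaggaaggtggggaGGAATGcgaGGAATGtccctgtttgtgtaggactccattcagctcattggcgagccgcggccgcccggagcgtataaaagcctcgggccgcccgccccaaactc

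The E-boxes begin 178 and 85 bases before the start of DSP, 57, 27 and 15 bases before that of AP1M2, and 228, 192 and 133 bases before that of SPRR1B. The TEAD motifs of CCN2 begin 169, 104 and 95 bases before its start. The intensity of DSP was 2393 in the control and 350 in ethanol, AP1M2 177 and 73.9, SPRR1B 1486 and 124, and CCN2 114 and 1143.

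The 25 genes furthest above control had log2 differences between 2.95 and 5.69, and the 25 furthest below between 3.10 and 4.97 in size. FABP4, an intracellular fatty acid carrier, had intensities of 41.8 in the control, 2163 in ethanol and 152 in acetaldehyde, and stood at least 30.8-fold above control in ethanol. TFPI2, an inhibitor of serine proteases of the matrix, had 63.7, 1647 and 553 in the same order. The protease inhibitor SERPINE2 had 63.1, 1409 and 488. In these 3 genes the control was under the floor and acetaldehyde lay between control and ethanol.

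At the other end CALB1, which encodes the calcium buffer calbindin, had 3407 in the control, 109 in ethanol and 2998 in acetaldehyde, and stood 31.3-fold below control in ethanol. UPK1B, a tetraspanin of the urothelial surface, had 1163, 43.6 and 1234. The neuronal calcium sensor gene VSNL1 had 1250, 86.1 and 1224. In all 3 the ethanol array stood alone and acetaldehyde was close to control. CXADR, a junctional adhesion protein that viruses use as a receptor, had 903, 63.2 and 753, and the sialyltransferase gene ST6GALNAC2 had 1117, 77.8 and 829.

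**Figure D2:**
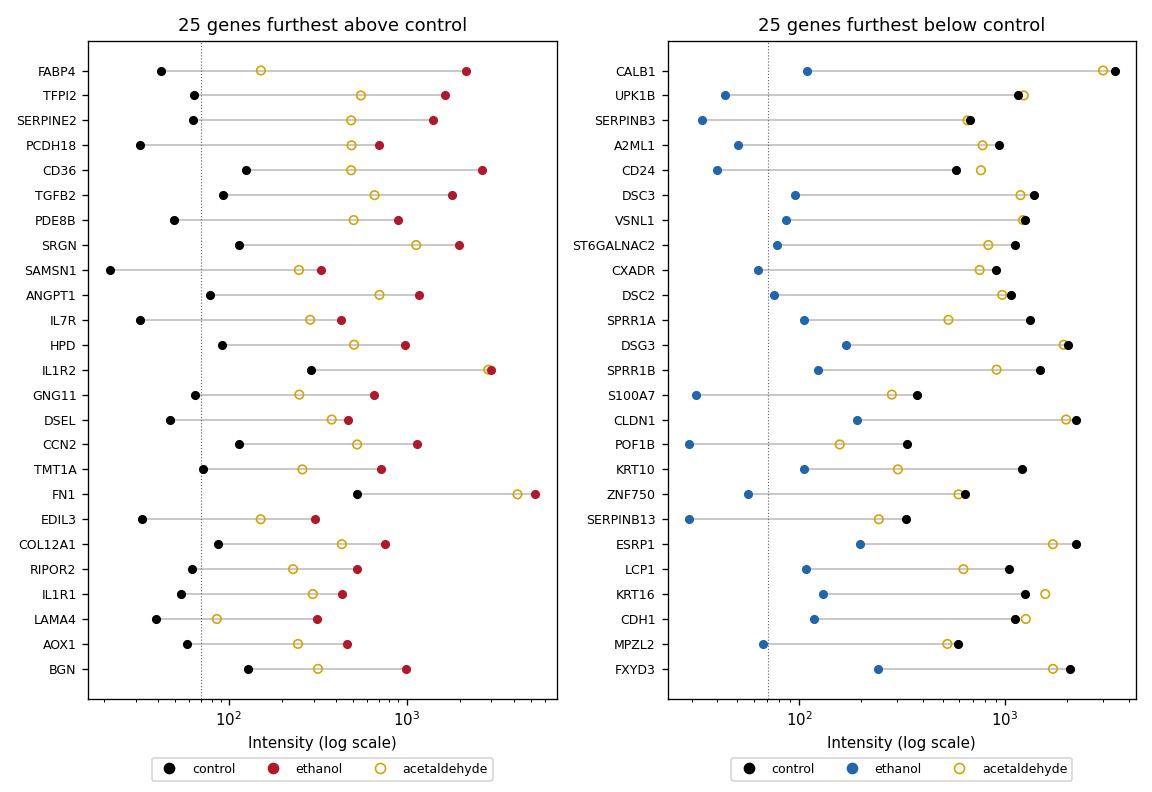
Intensity (log scale) of the 25 genes furthest above (left) and furthest below control (right), with black points for the control, filled coloured points for ethanol and open points for acetaldehyde, 1 array each, and the floor of 70.2 as a dotted line. FABP4 goes from 41.8 in the control to 2163 in ethanol, and CALB1 from 3407 to 109.

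The genes were then read through 65 lists by role, which held 1191 measured genes, 890 of them past the floor. Members of the lists made up 103 of the higher genes (34.8%) and 117 of the lower genes (42.5%). Over all 11264 genes past the floor 2.63% stood higher and 2.44% lower. The lists were chosen with earlier results of these data known, so these counts are not a finding about the lists. The median log2 difference over all genes past the floor was 0, and list medians are set beside it.

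Cell adhesion was lower in ethanol at several kinds of junction. Among 9 desmosome genes 7 stood lower and 0 higher by 2-fold, and their median log2 difference was -2.03. Of the desmosomal cadherins, which join neighbouring cells, DSC3 had 1389 in the control, 95.5 in ethanol and 1189 in acetaldehyde, DSC2 had 1069, 75.3 and 969, and DSG3 had 2024, 168 and 1928. The plaque genes PKP1 and PKP2 had 337 against 1379 and 115 against 466. DSG2, the desmosomal cadherin of simple epithelia, had 684 against 939 and PKP3 had 168 against 250, both under 2-fold.

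Classical cadherins went both ways, with 3 of 8 lower and 2 higher. The E-cadherin gene CDH1 had 1114 in the control and 117 in ethanol, and the P-cadherin gene CDH3 had 2285 and 316. The N-cadherin gene CDH2 stood higher, at 282 against 94.6, as did CDH11 at 145 against 67.3. Among the catenins, which tie cadherins to the cytoskeleton, JUP had 495 against 1921, whereas CTNNA1 had 1060 against 1036 and CTNNB1 2297 against 1666. JUP, shared by desmosomes and adherens junctions, thus stood apart from CTNNA1 and CTNNB1.

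Of 10 tight junction genes 3 stood lower and 0 higher, with a median of -0.24. CLDN1, a sealing claudin, had 2217 in the control and 192 in ethanol, CLDN7 had 1729 and 302, and MARVELD2, the gene of tricellulin, had 746 and 145. The other 7 members lay within 0.43 of 0 on the log2 scale, with CLDN4 at 155 against 175 and the scaffold gene TJP1 at 601 against 807. With the floor at the 75th percentile of the table the median of the tight junction list was -2.36, and with no floor it was -0.13.

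Apical sorting and polarity genes followed, with 7 of 21 lower, 0 higher and a median of -0.62. EPCAM, an epithelial adhesion protein, had 613 in the control and 85.3 in ethanol. MAL2, which carries cargo to the apical membrane, had 4895 and 1111, and the scaffold gene PATJ had 419 and 147. RAB25, a small GTPase of apical recycling, had 118 and 32.9, and stood at -0.75 with values under the floor raised to it. The core polarity genes PARD3, PALS1 and LLGL1 had 188 against 194, 247 against 256 and 179 against 179, a choice made after their values were seen. Membrane serine proteases and their inhibitors, which act on epithelial surfaces, had 4 of 6 lower and a median of -1.65. The protease genes PRSS8 and ST14 had 58.8 against 268 and 81.1 against 218, and their inhibitors SPINT1 and SPINT2 had 114 against 496 and 133 against 486. Both sides of this protease and inhibitor system thus stood lower. With no floor the median of that list was -0.25.

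At the basement membrane the picture was mixed, with 3 of 11 hemidesmosome and laminin genes lower and 2 higher. The hemidesmosome integrin pair ITGA6 and ITGB4 had 649 against 1805 and 665 against 1985, and their laminin ligand gene LAMB3 had 250 against 783. LAMA4 and LAMC1, chains of other laminins, stood higher at 314 against 38.7 and 2285 against 1083. Integrins showed a like division. The collagen receptor gene ITGA2 had 1001 in the control and 297 in ethanol, whereas the fibronectin receptor gene ITGA5 had 296 and 1024, and its partner ITGB1 had 1239 and 1542. Of 5 gap junction genes, GJB2 and GJB5 stood lower, at 125 against 276 and 84.8 against 181, and GJA1 had 222 against 245.

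Transcription and splicing factors of epithelial identity were lower as a group, with 11 of 21 past 2-fold, 0 higher and a median of -1.10. That median was -0.85 with no floor and -1.75 with the floor at the 75th percentile. ZNF750, a regulator of epidermal differentiation, had 638 in the control, 56.2 in ethanol and 594 in acetaldehyde. ESRP1, which sets epithelial splice forms, had 2212, 197 and 1709. BNC1, a zinc finger factor of basal keratinocytes, had 478, 79.2 and 343, and the ETS factor EHF had 399, 71.2 and 400. TFAP2A had 1001 and 267 and SOX15 had 327 and 74.2. The breast luminal factors GATA3 and FOXA1 were dim and near equal, at 82.3 in both arrays and 93.3 against 94.4.

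Mesenchymal transcription factors had 5 of 17 higher and 0 lower. Their median was 0.43, or 0.03 with no floor and 1.06 with the floor at the 75th percentile. TWIST1 had 151 in the control, 1007 in ethanol and 670 in acetaldehyde. ZEB1 had 75.7, 229 and 147, and ZEB2 had 61.5, 318 and 160. With the mean of its probes in place of the brightest, ZEB2 had a log2 difference of 1.24. RUNX2 and ETS1 had 327 against 157 and 297 against 132. SNAI2, named after its values were seen, was bright in both arrays at 3578 and 3458, and SNAI1 had 57.2 and 97.7. TWIST1, ZEB1, ZEB2, RUNX2 and ETS1 were the 5 factors past 2-fold, and both SNAI genes were under it.

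Keratins of basal and stratified epithelium had 6 of 10 lower, 0 higher and a median of -1.29. That median was -1.10 with no floor and -2.77 with the floor at the 75th percentile. KRT10, of suprabasal layers, had 1205 in the control, 106 in ethanol and 302 in acetaldehyde. KRT16, of activated keratinocytes, had 1257, 131 and 1569, and the basal keratin KRT14 had 607, 105 and 794. KRT5, the partner of KRT14, was the brightest of the list at 3629 against 6056, a log2 difference of -0.74. Simple keratins were close to control or higher: KRT7 had 2070 against 2146, KRT18 1004 against 986 and KRT8 3068 against 1474. VIM, the mesenchymal filament gene, had 1693 and 3086, under 2-fold.

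Genes of the cornified envelope and the skin barrier were lower in part. Their median over 18 cornified envelope genes was -0.75, with 6 lower and 0 higher. It was -0.48 with no floor and -1.96 with the floor at the 75th percentile. SPRR1A had 1330 in the control, 105 in ethanol and 531 in acetaldehyde, and the crosslinking enzyme gene TGM1 had 247, 57.1 and 387. Of 13 S100 calcium-binding genes 6 stood lower and 1 higher. S100A8 and S100A9, which form calprotectin, had 817 against 2858 and 168 against 478, with acetaldehyde at 3917 and 687. S100A14 had 184 against 1235, S100A3 stood higher at 253 against 110, and S100A10 had 4389 against 4789. The serpins SERPINB3 and SERPINB13 had 33.8 against 677 and 29.1 against 330, at least 9.64-fold and 4.69-fold lower, while SERPINB5, the maspin gene, had 1018 against 1606. Of 5 kallikreins KLK10 and KLK7 stood lower, at 217 against 638 and 88.3 against 236.

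Surface glycoproteins and barrier lipid genes had 9 of 18 lower and 0 higher. Their median was -0.90, or -0.26 with no floor and -1.58 with the floor at the 75th percentile. CD24, a surface glycoprotein of luminal cells, had 581 in the control, 39.6 in ethanol and 764 in acetaldehyde. ABCA12, a lipid transporter of the skin barrier, had 1300, 183 and 962. The mucin gene MUC1 had 854, 287 and 1041. In CD24 and MUC1 acetaldehyde was above control while ethanol was below it.

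The extracellular matrix stood on the other side. Of 24 matricellular, proteoglycan and crosslinking genes 13 stood higher by 2-fold and none lower, and the median was 1.20, or 0.47 with no floor. SRGN, a proteoglycan of secretory granules, had 114 in the control, 1982 in ethanol and 1132 in acetaldehyde. The matricellular gene CCN2 had 114, 1143 and 527. LOX, which crosslinks collagen, had 462, 2314 and 1872, and the small proteoglycan gene BGN had 129, 993 and 318. The lysyl hydroxylases PLOD1 and PLOD2, named after their values were seen, had 1430 against 577 and 1579 against 707.

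Fibronectin, collagen and elastic fibre genes had 10 of 23 higher, 0 lower and a median of 0.37, or 1.22 with the floor at the 75th percentile. FN1 had 529 in the control, 5293 in ethanol and 4204 in acetaldehyde, and with the mean of its probes its log2 difference was 1.99. COL12A1, a collagen that coats fibrils, had 87.0, 754 and 432, and COL6A1 had 165, 743 and 457. The basement membrane pair COL4A1 and COL4A2 had 180 against 64.0 and 259 against 88.9. The fibrillar collagens of fibroblasts did not follow: COL1A1 had 161 against 150, COL1A2 83.9 in both arrays and COL3A1 100 against 98.9. Of 12 fibroblast markers 8 were under the floor in both arrays, among them LUM, PDGFRA and PDGFRB. DCN alone was past 2-fold, at 88.1 against 31.4, and had a log2 difference of 0.33 once dim values were raised to the floor. The summed intensity of that marker list was 648 in the control and 758 in ethanol.

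HAS2, a hyaluronan synthase, had 38.6 in the control, 266 in ethanol and 699 in acetaldehyde, so that acetaldehyde was further from control than ethanol. The hyaluronan receptor CD44 had 2782 against 2736. Matrix proteases and inhibitors had 4 of 10 higher and 0 lower. MMP2, a gelatinase, had 151 in the control and 1026 in ethanol, its inhibitors TIMP2 and RECK had 777 against 292 and 224 against 70.0, and TIMP3 had 678 against 1287. Coagulation genes had TFPI at 1073 against 277, whereas thrombomodulin, THBD, stood lower at 311 against 767. The contractile list had 1 of 17 higher, CNN3 at 278 against 77.2, and 1 lower, DAAM1, which was at -0.47 once dim values were raised to the floor. ACTA2, the smooth muscle actin gene, had 358 against 218.

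**Figure D3:**
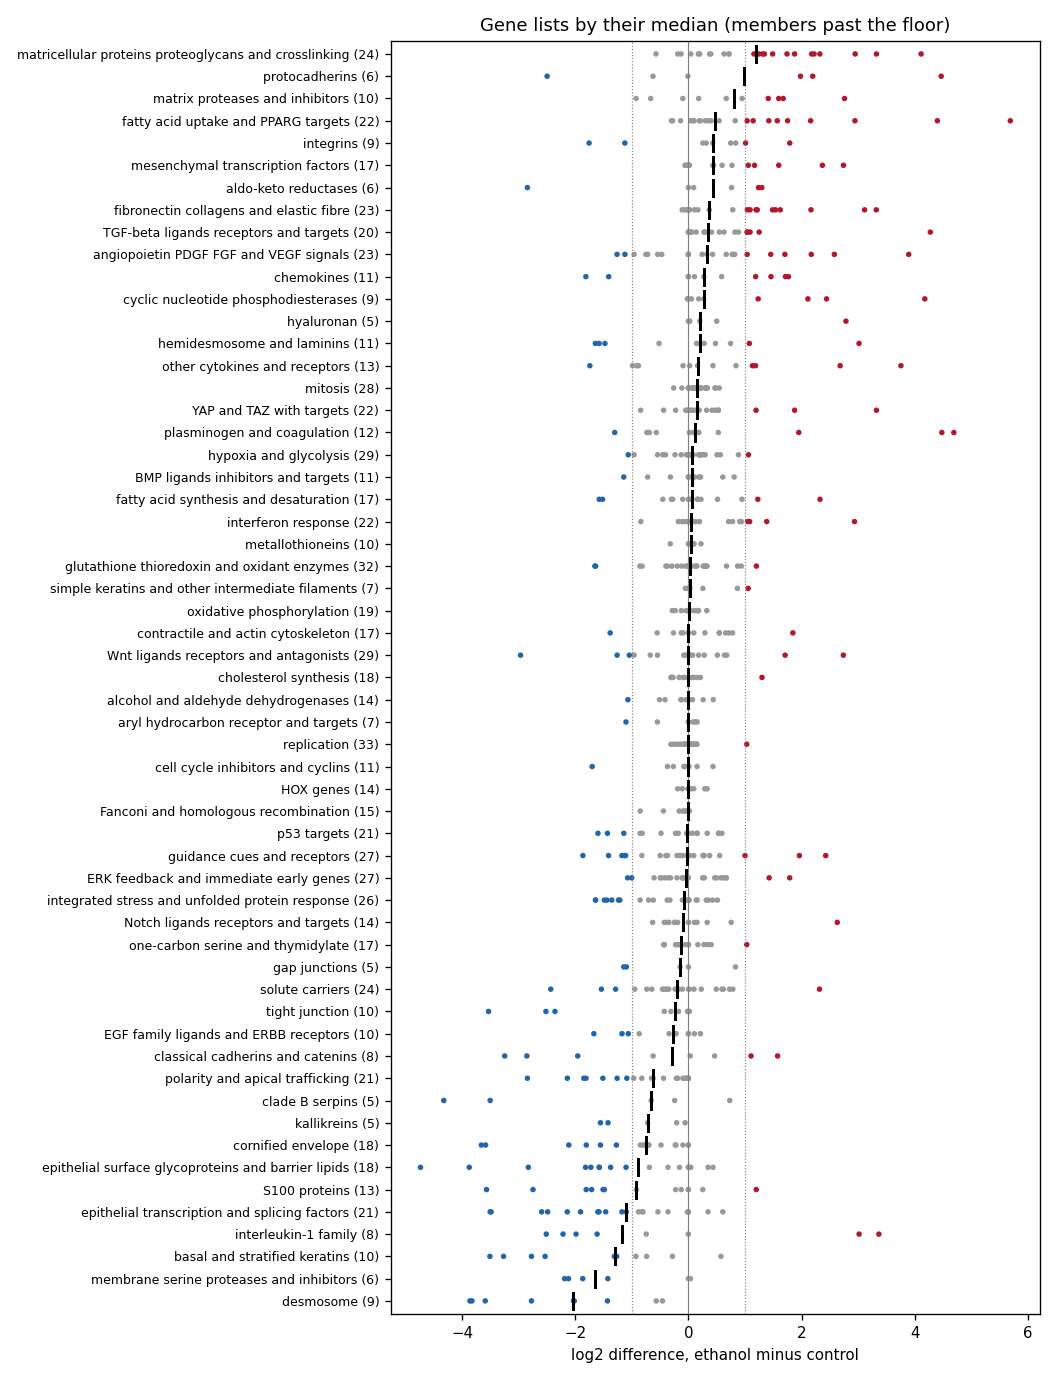
Log2 difference, ethanol minus control, of each member past the floor (points) of the lists with at least 5 such members, with the list median as a black bar, the number of members in brackets and dotted lines at a 2-fold difference. Red points mark members higher by 2-fold and blue points members lower by 2-fold. Marker lists of cell types are left out. Among the lists drawn, matricellular genes have the highest median, 1.20, and desmosome genes the lowest, -2.03.

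In the TGF-beta list 5 of 20 stood higher and 0 lower, around a median of 0.35. The ligand gene TGFB2 had 92.5 in the control, 1793 in ethanol and 661 in acetaldehyde. Its receptors TGFBR2 and TGFBR3 had 1087 against 457 and 190 against 92.4, and the latency protein genes LTBP1 and LTBP2 had 551 against 259 and 588 against 286. The feedback gene SMAD7 had equal values in both arrays, and PMEPA1, another TGF-beta target, had 201 against 197. In the BMP list 1 of 11 was past 2-fold, the divergent family member GDF15 at 635 against 1401.

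Of 22 genes of the YAP and TAZ pathway, which reads cell shape and contact, 3 stood higher and 0 lower. These were CCN2, CCN1 at 435 against 118 and the receptor kinase gene AXL at 959 against 419. YAP1 itself had 897 in both arrays.

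EGF family genes had 3 of 10 lower and 0 higher. The ligand genes HBEGF and EPGN had 160 against 509 and 77.9 against 163, and the receptor gene EGFR had 803 against 1811. The medium of both cultures contained EGF. Downstream, EGR1 had 431 against 907, the phosphatase gene DUSP10 had 624 against 232 and the ETS factor gene ETV1 had 608 against 176.

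In the interleukin-1 family 4 of 8 members stood lower and 2 higher by 2-fold. By 1.5-fold 5 stood lower and 2 higher, and 1 had equal values. Another 8 measured members were under the floor in both arrays. The median was -1.18, or 0 with no floor. The ligand gene IL1A had 2345 in the control, 411 in ethanol and 1511 in acetaldehyde. IL18 had 832, 179 and 839, and IL1B had 235, 59.3 and 188. Running the other way were the receptor gene IL1R1, at 53.7, 435 and 297, and the decoy receptor IL1R2, at 288, 2976 and 2882. IL1RN, the receptor antagonist, had 109 in the control and 35.5 in ethanol, or a log2 difference of -0.63 once dim values were raised to the floor.

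Chemokines had 4 of 11 higher and 2 lower. CCL20, which attracts lymphocytes and dendritic cells, had 74.2 in the control, 253 in ethanol and 62.2 in acetaldehyde. The neutrophil chemokines CXCL8 and CXCL2 had 223 against 67.9 and 344 against 125, while CXCL16 and CXCL14 had 70.3 against 247 and 67.0 against 178. Among other cytokine genes, IL7R had 31.6 in the control and 428 in ethanol, at least 6.09-fold higher, and CSF1, the macrophage growth factor gene, had 149 and 955. IL6 had 61.5 and 140, and did not reach 2-fold with the mean of its probes, at 0.59. TNFSF10, the death ligand TRAIL, had 97.7 and 29.2, or -0.48 with dim values raised to the floor.

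Angiogenic and insulin-like growth factor genes had 6 of 23 higher and 2 lower. ANGPT1, a ligand of the endothelial receptor TEK, had 78.5 in the control, 1168 in ethanol and 704 in acetaldehyde. The IGF-binding proteins IGFBP4, IGFBP3 and IGFBP7 had 2572 against 430, 536 against 119 and 1386 against 505, and the ligand gene PDGFC had 430 against 132. NRP2, a co-receptor of semaphorins and VEGF, stood lower at 115 against 276. TEK itself was under the floor in both arrays, as were PDGFRA and PDGFRB.

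Wnt genes had 2 of 29 higher and 3 lower. DKK1, a secreted Wnt antagonist, had 274 in the control, 1829 in ethanol and 1192 in acetaldehyde. SFRP1, another secreted antagonist, had 662, 84.6 and 501, so the antagonists stood on opposite sides of control. The receptor gene ROR2 had 207 against 63.3. FZD3 and RNF43 had 36.4 against 87.3 and 58.4 against 120, and neither reached 2-fold once dim values were raised to the floor, at -0.31 and -0.78. In the Notch list MAML2, a coactivator, was the only member of 14 past 2-fold, at 322 against 51.9, with HES1 at 248 against 320.

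**Figure D4:**
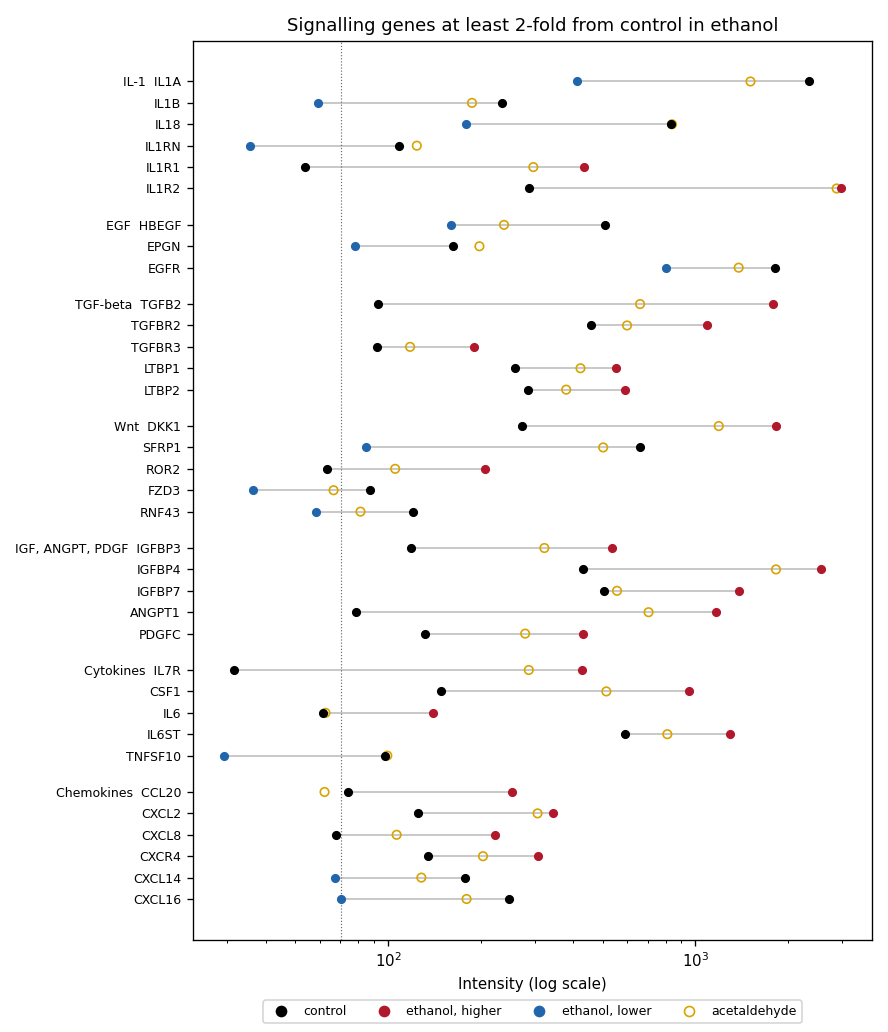
Intensity (log scale) of signalling genes at least 2-fold from control in ethanol, grouped by pathway, with black points for the control, filled coloured points for ethanol and open points for acetaldehyde, 1 array each, and the floor of 70.2 as a dotted line. The interleukin-1 ligands drawn lie left of control in ethanol, IL1A at 411 against 2345. The receptors drawn, IL1R1 and IL1R2, lie right of it, IL1R2 at 2976 against 288.

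Guidance genes had 3 of 27 higher and 5 lower. The receptor gene PLXND1 and the semaphorin gene SEMA3C had 707 against 131 and 1306 against 335, while the netrin receptor gene UNC5B had 133 against 485 and the ephrin gene EFNA3 had 219 against 583. Protocadherins, a family of adhesion proteins best known in neurons, had PCDH18 at 698 against 31.5 and PCDH9 at 141 against 35.6, while the giant cadherin gene FAT2 had 142 against 803. Of 9 cyclic nucleotide phosphodiesterases 4 stood higher and 0 lower. PDE8B and PDE7B, which break down cyclic AMP, had 896 against 49.4 and 296 against 54.4, with acetaldehyde at 504 and 170. Cholera toxin, which raises cyclic AMP, was in the medium of both cultures.

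Interferon response genes had 4 of 22 higher and 0 lower by 2-fold, and 8 higher and 1 lower by 1.5-fold. Their median was 0.05, or 0 with no floor and 0.99 with the floor at the 75th percentile. IFI44L had 39.8 in the control and 305 in ethanol, and IFI6 had 242 and 633. The class I antigen genes HLA-B and HLA-C had 2650 against 1250 and 1727 against 901, and probes of this family may share signal. ISG20, IRF7 and IRF9 had equal values in both arrays.

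Fatty acid uptake and PPARG target genes had 9 of 22 higher, 0 lower and a median of 0.47. Beside FABP4, the fatty acid transporter CD36 had 125 in the control, 2648 in ethanol and 488 in acetaldehyde. The nuclear receptor PPARG had 75.5, 202 and 119. PDK4, which turns cells from glucose to fat oxidation, had 980, 3305 and 1139, and the acyl-CoA synthetase genes ACSL5 and ACSL4 had 212 against 47.5 and 626 against 211. Adipocyte markers summed to 618 in the control, 5512 in ethanol and 1158 in acetaldehyde, and FABP4 and CD36 made up 2163 and 2648 of the ethanol sum. Of 6 adipocyte markers past the floor 4 were past 2-fold, and their median of 1.28 became 0.40 with no floor. ADIPOQ, LEP and LPL were under the floor in both arrays with values of 32.4, 38.4 and 27.7.

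Lipid synthesis stood nearer to control. Of 18 cholesterol synthesis genes 1 reached 2-fold, the sterol sensor partner INSIG1 at 490 against 199, and DHCR7, MSMO1 and TM7SF2 had equal values. The desaturase genes FADS2 and FADS1 had 662 against 132 and 1565 against 668, whereas SCD5 had 84.5 against 242.

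In the list of alcohol and aldehyde dehydrogenases and related enzymes 1 of 14 genes was past 2-fold. This was ALDH1L2, a mitochondrial folate enzyme of the aldehyde dehydrogenase family, at 289 against 606. The listed alcohol dehydrogenase genes ADH1A, ADH1B, ADH1C, ADH4, ADH6 and ADH7, with CYP2E1 and ALDH1A1, were under the floor in both arrays. ALDH3A1, ALDH3A2 and ALDH9A1 had equal values, at 111, 832 and 439. Aldo-keto reductases, which reduce carbonyls, included AKR1B10 at 306 in the control, 42.6 in ethanol and 448 in acetaldehyde. AKR1C1 and AKR1C2, near-identical genes whose probes may share signal, had 1805 against 734 and 1700 against 720, and AKR1C1 had a log2 difference of 0.65 with the mean of its probes.

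Stress genes were lower or near control. Of 26 genes of the integrated stress and unfolded protein responses 7 stood lower and 0 higher, around a median of -0.07. The members past 2-fold include genes of amino acid stress and transport. CHAC1, which degrades glutathione, had 90.2 against 281, TRIB3 228 against 638, DDIT3 146 against 396, and the cystine transporter SLC7A11 281 against 877. SLC7A5 with its partner SLC3A2, a leucine transporter, had 1677 against 3946 and 1035 against 2397. The chaperone genes HSPA5 and HSP90B1 had 2949 against 2679 and 3213 against 2387. All named members other than SLC7A11, CHAC1, TRIB3, DDIT3 and SLC7A5 were chosen after their values were seen. Of 32 glutathione, thioredoxin and oxidant genes, SOD2, the mitochondrial superoxide dismutase, stood higher at 2117 against 920, and the oxidase gene DUOX1 lower at 61.4 against 193 together with SLC7A11. HMOX1 had 73.5 against 72.9 and NQO1 2340 against 2152.

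Growth and housekeeping lists were close to control. None of 28 mitosis genes, 15 Fanconi and recombination genes, 19 oxidative phosphorylation genes, 14 HOX genes or 10 metallothionein genes reached 2-fold, with medians between -0.01 and 0.15. Of 33 replication genes the thymidylate synthase gene TYMS alone did, at 818 against 400. In these lists 9 replication, 6 HOX, 4 Fanconi and recombination and 3 mitosis genes had equal values in both arrays. So did 1 oxidative phosphorylation gene and 1 metallothionein gene. The cyclin gene CCND2 had 213 against 694, while CCND1 had 728 against 723. The glucose transporter gene SLC2A1 had 897 against 1875 and the neuronal enolase gene ENO2 had 232 against 111. Of the p53 target list, SFN, PERP and GDF15 stood lower, and CDKN1A had 656 against 589.

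Marker lists of cell types check the label. Basal mammary markers, 7 of them past the floor, summed to 15332 in the control, 6417 in ethanol and 14277 in acetaldehyde, and 6 stood lower in ethanol. Luminal markers summed to 4923, 4965 and 5678, with ESR1 and PGR under the floor. Of 9 luminal markers past it, CD24, EPCAM and MUC1 stood lower by 2-fold and KRT8 and PRLR higher. PRLR had a log2 difference of 0.46 once dim values were raised to the floor. The luminal median was 0, or -1.575 with the floor at the 75th percentile. Endothelial, neural and muscle markers had 0 members past 2-fold, with sums of 413 against 403, 639 against 620 and 463 against 442. Only 1 of 10, 4 of 10 and 2 of 7 of these markers passed the floor, and the rest added values under it to the sums. The highest neural marker had a log2 difference of 0.81. Immune markers summed to 1114 and 1854, of which the lysosomal gene CD68 made up 721 and 1484, while PTPRC and CD3E were under the floor. The part of other cells in these differences was not tested.

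Neighbouring genes on a chromosome stood on the same side in 5 runs of at least 3 consecutive genes past the floor, among 10806 placed by RefSeq order. The lower runs were DSC3, DSC2 and DSG3 on chromosome 18, PGLYRP3, S100A9, S100A8 and S100A7 on chromosome 1, and IL1A, IL1B and IL1RN on chromosome 2. The higher runs were C1S, C1R and C1RL on chromosome 12, which encode complement proteases and a relative, and PTGFR, IFI44L and ADGRL2 on chromosome 1. C1S had 104 in the control and 587 in ethanol, C1R 93.8 and 336, and C1RL 133 and 280. PTGFR had 36.8 and 86.7, or a log2 difference of 0.30 once dim values were raised to the floor.

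Promoter windows were read for the motifs shown above. Each window ran from 250 bases before to 50 bases after the first listed RefSeq start, and 9024 genes past the floor had one. The E-box CACCTG, on either strand, lay in 1671 of these windows (18.5%) and in 20.6% of all windows of the reference table. Among genes at least 2-fold lower in ethanol 76 of 201 windows held it (37.8%), and among those at least 2-fold higher 30 of 235 (12.8%). At 4-fold it was 25 of 53 (47.2%) and 9 of 57 (15.8%). Windows with at least 2 copies made up 2.7% of all, 11.4% of the lower genes and 0 of the 235 higher genes. The mean GC content was 65.0% over all windows, 62.4% in the lower genes and 62.1% in the higher genes. In the lower genes the share was 35.0% in windows under the median GC content and 42.0% in windows above it, against 18.4% and 18.7% over all genes.

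**Figure D5:**
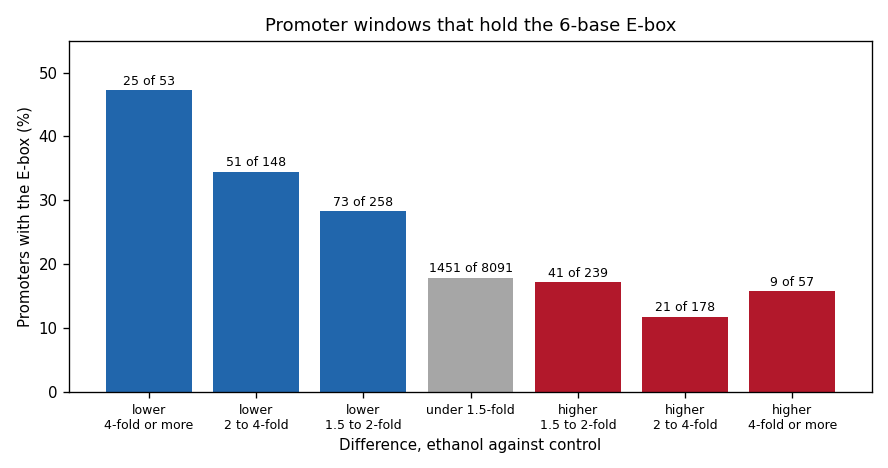
Share of promoter windows that hold CACCTG on either strand (vertical, percent, from 0), for genes in bins of their difference between ethanol and control (horizontal), with the count over each bar. The share is 47.2% among genes at least 4-fold lower, 17.9% among genes under 1.5-fold and 15.8% among genes at least 4-fold higher.

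By list, the E-box lay in 9 of 13 windows of polarity and apical sorting genes, 8 of 14 of cornified envelope genes and 7 of 13 of S100 genes, and in 1 of 17 each of the collagen and the matricellular lists. Other lists went against this division. One-carbon, serine and thymidylate genes, with 0 of 17 lower by 2-fold, had it in 6 of 13 windows. A low share was not particular to the matrix lists. ERK feedback and immediate early genes, with a median of -0.04, had it in 0 of 20 windows. Contractile genes had it in 1 of 16 and alcohol and aldehyde dehydrogenases in 0 of 10, both with a median of 0. Epithelial transcription and splicing factors had it in 3 of 12, tight junction genes in 2 of 8, and classical cadherins and catenins in 0 of 5. The polarity genes with a match included PATJ, RAB25, AP1M2, CDS1 and MYO5C, all at least 2-fold lower, and also CRB3 and EPS8L1, which had equal values in both arrays. The TEAD motif CATTCC lay in 959 windows (10.6%), in 33 of 235 windows of the higher genes and in 21 of 201 of the lower genes (10.4%). The related E-box CAGCTG, added after the values were seen, lay in 16.9%, 19.1% and 17.9%, and the AP-1 motif TGANTCA, added likewise, in 4.47%, 7.23% and 11.9%, in the same order. At 4-fold the AP-1 motif lay in 11 of 53 windows of the lower genes (20.8%) and 4 of 57 of the higher genes (7.02%). The larger share among lower genes was thus not particular to CACCTG. The TEAD motif at 4-fold lay in 8 of 53 windows of the lower genes (15.1%) and 9 of 57 of the higher genes (15.8%). These TEAD shares were close to each other. After rounding, the TEAD share of the genes at least 2-fold higher equalled that of all windows of the reference table. Each motif was searched on both strands, and a match describes the letters of the window and not a bound site.

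The soft agar clone and its control were measured on other arrays. That pair is set apart by selection in soft agar as well as by ethanol, and in it 14.7% of genes stood higher than its control by 2-fold and 5.83% lower. Of the 25 genes furthest above control in ethanol 24 passed the floor of the clone table and 22 stood higher in the clone by 2-fold, and of the 25 furthest below 24 passed and 24 stood lower by 2-fold. The exceptions on the higher side included BGN, at 183 in the clone against 213 in its control, and HPD, a tyrosine catabolism enzyme gene, at 196 against 121. SAMSN1, an adaptor of lymphoid cells with 21.4 in the control and 330 in ethanol, was under the floor in both arrays of the clone table. CALB1 had 25.0 in the clone against 1650 in its control, and FABP4 had 962 against 23.1.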

How the data were processed

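RNA from each culture was hybridised to an Affymetrix human Gene ST array. The authors deposited linear intensity values made with RMA, per the submitters' processing notes; its version and the genome build are not given in the sources used here. Log2 was taken of the deposited intensity, and differences were formed within the table of 3 arrays. Probes were named through the platform annotation. The brightest probe stood for a gene, and 895 of 17958 genes had several. Equal values are those within 1e-06 on the log2 scale. Equal values in ethanol and control were found for 43.9% of probes here, against 1.02% in the clone table.

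With 1 array per group there was no test and no p-value. The members and the 65 lists were chosen with earlier results of these data known. Named are the 25 genes furthest from control each way, per list up to 6 members by size and 3 nearest to 0, marker genes and members of neighbour runs. Genes named beyond these, such as SNAI2, PARD3 and SLC3A2, are list members or clone exceptions chosen after their values were seen. The rule for folds against the floor was also added after the data were seen. Gene order came from chromosome and start position in RefSeq on GRCh38.p14, with 17930 genes matched by gene identifier. Alternatives covered scaling, the floor, dim values and the choice of probe. The scripts were tested on simulated data. They used Python 3.11.15, pandas 2.3.3 and statsmodels 0.14.6.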

Additional observations from a re-analysis of the deposited data

Results flagged for a closer look

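Probes left out of the comparison also differed. Of 1200 probes with several gene symbols past the floor, 14 stood higher in ethanol by 2-fold and 15 lower. Of 3801 probes past the floor that the annotation does not list, 19 stood higher by 2-fold and 29 lower. These probes are not named here.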

How the results depend on the processing

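The counts of higher and lower genes stayed within 1.5 times of 296 and 275 under the 8 alternatives run. They were 210 and 190 of 5726 genes with the floor at the 75th percentile, 200 and 191 of 10869 with both arrays above the floor, and 304 and 279 of 17958 with no floor. Raising dim values to the floor gave 261 and 238, and the mean of a gene's probes gave 291 and 273. Centring and a lowess correction moved the counts by at most 1. Of 60 list medians, 9 moved by over 1.5-fold with no floor, among them the interleukin-1 family and protocadherins to 0, and 9 of 49 with the floor at the 75th percentile. Of 473 named genes, 18 fell under 2-fold with dim values raised to the floor, and 2, AKR1C1 and IL6, with the mean of probes. No median of at least 1.5-fold and no named gene changed sign under the alternatives run for it. The smaller medians of classical cadherins, -0.29, and guidance genes, -0.02, did, to 0.03 with no floor and 0.05 with the floor at the 75th percentile. No paired analysis was possible because each group has 1 array. The number of arrays, and values near the floor, limit every difference here.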

Other observations

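Some genes differed from control in ethanol and in the clone in opposite directions, although the clone also derives from ethanol-exposed cells. Over 10503 genes past the floor of both tables, 3 of the 279 that stood higher in ethanol by 2-fold were lower by 2-fold in the clone, and 3 of the 245 lower genes were higher there by 2-fold. Over all 12262 genes past the floor of the clone table, 5.83% stood lower and 14.7% higher by 2-fold, so opposite genes were rarer than these shares. The steroid-converting enzyme genes AKR1C1 and AKR1C2 had 1805 in ethanol against 734 in the control and 1700 against 720. In the clone table they had 701 in the clone against 3967 in its control, and 1066 against 4864. INSIG1, which restrains sterol synthesis, had 490 against 199 in the ethanol table and 455 against 2049 in the clone table. All 3 genes were brighter in the clone's control than in the untreated control, on arrays normalised separately.

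On the other side were XDH, the xanthine oxidoreductase gene, SAMD9, an interferon-inducible gene, and ALDH1L2. XDH had 167 in ethanol against 579 in the control and 240 against 60.4 in the clone table. SAMD9 had 274 against 576 and 357 against 94.2. ALDH1L2 had 289 against 606 and 265 against 126. A further 27 of the higher and 26 of the lower genes were under 1.5-fold in the clone. These 6 genes were chosen after their values were seen, and the cause was not tested.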
